A study of Mus musculus with 4 samples.

Results

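Fibroblast, pericyte and mesothelial marker RNA was followed here through 32 genes, taken by symbol from a table of 17915 coding genes, and all 32 had a row. They are 9 markers of mural cells (pericytes and smooth muscle), 6 of alveolar fibroblasts, 6 of adventitial fibroblasts, 6 of other fibroblast states (peribronchial, activated or matrix-forming) and 5 of the mesothelium, and collagen and other large matrix gene families were left out. The libraries came from lung endothelial cells of mice with the genotype Cdh5-CreER;aSMA-LSL-Dre;NR1. Tamoxifen had been given 5 times in every group, and the label of each library reads 6 weeks of transverse aortic constriction (TAC), a surgical narrowing of the aorta. Cdh5-CreER is a tamoxifen-inducible recombinase under an endothelial promoter, Dre is a second recombinase under alpha smooth muscle actin (aSMA), and the NR1 reporter turns endothelial cells ZsGreen+ and, once aSMA has been active, tdTomato+. There were 2 tdTomato+ and 2 ZsGreen+ libraries, each labelled a biological replicate, and no group without TAC. The labels do not say whether libraries stem from separate animals or from pools, so a p-value refers to the spread among the 4 libraries, which may be technical in part.

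Lung stroma holds several kinds of cell beside the endothelium. Pericytes wrap capillaries and carry a potassium channel and hypoxia-type mitochondrial subunits as markers. Alveolar fibroblasts lie in the walls of the air sacs, adventitial fibroblasts in the cuffs around airways and larger vessels, and mesothelial cells line the lung surface. None of these cells is expected to recombine under an endothelial Cre, so their markers are used to describe which other RNA a sorted endothelial library contains. Many such markers are not exclusive, and an endothelial cell can transcribe some of them.

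Total counts over coding genes ran from 17050673 to 18574737 per library. The 12 endothelial markers listed for reference, among them Pecam1 and Cdh5, summed to 8232 and 8049 TPM (a transcript level scaled for length and depth) in tdTomato+ replicates 1 and 2 and to 8951 and 8976 TPM in ZsGreen+ replicates 1 and 2. Pecam1, an endothelial adhesion molecule, stood at 986, 912, 900.4 and 977 TPM and Cdh5, VE-cadherin, at 772, 453, 839 and 600.2 TPM in the same order, so the defining markers of the labelled cell type were abundant in every library. The 32 stromal markers together summed to 283 and 397 TPM in tdTomato+ cells and 199 and 189 TPM in ZsGreen+ cells, which is 3.44% and 4.94% against 2.23% and 2.11% of the endothelial sum. In bulk samples fewer cells of a type and less RNA per cell cannot be told apart, so no share of cells is given. A count of 0 in a library allows up to 3 counts. That is at most 0.176 CPM (counts relative to library size) on unscaled total counts, and this covers counting error only.

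Of the 5 lists, adventitial fibroblast markers set the tdTomato+ libraries apart most, at a summed 118 ± 41.9 TPM (SD, n = 2) against 31.0 ± 4.31 TPM in ZsGreen+ cells, and alveolar markers differed less, at 146 ± 23.8 against 101 ± 23.9 TPM. Mural and mesothelial markers were scarce, at 7.25 ± 1.19 against 10.3 ± 6.34 TPM and 5.02 ± 3.22 against 7.08 ± 4.19 TPM, and their groups overlapped. The 6 other fibroblast markers summed to 64.6 ± 10.7 against 44.9 ± 2.01 TPM, but to about the same on the CPM scale (log2 ratio -0.017), where Enpp2 weighs more. No single marker passed the test over all genes: edgeR's quasi-likelihood test called 0 of the 24 members that passed the low count filter, against 0.304% of all 13177 genes tested (0.167% higher and 0.137% lower). At an unadjusted p under 0.05 stood 9 of the 24, with Pi16, Cthrc1, Abca8a, Cd248, Gpc3, Clec3b and Cygb higher and Kcnj8 and Gpm6a lower in tdTomato+ cells, that is 7 and 2, against 8.77% of all genes tested (5.62% higher and 3.15% lower). DESeq2 called 3 members (Pi16, Cthrc1 and Gpm6a) beside 2.36% of all genes, and edgeR without the low count filter called 1 (Pi16) beside 0.764%. Leaving out ZsGreen+ replicate 1 gave 2 calls (Pi16 and Gpm6a) beside 2.21% of all genes, and leaving out any other library gave 0.

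**Figure D1:**
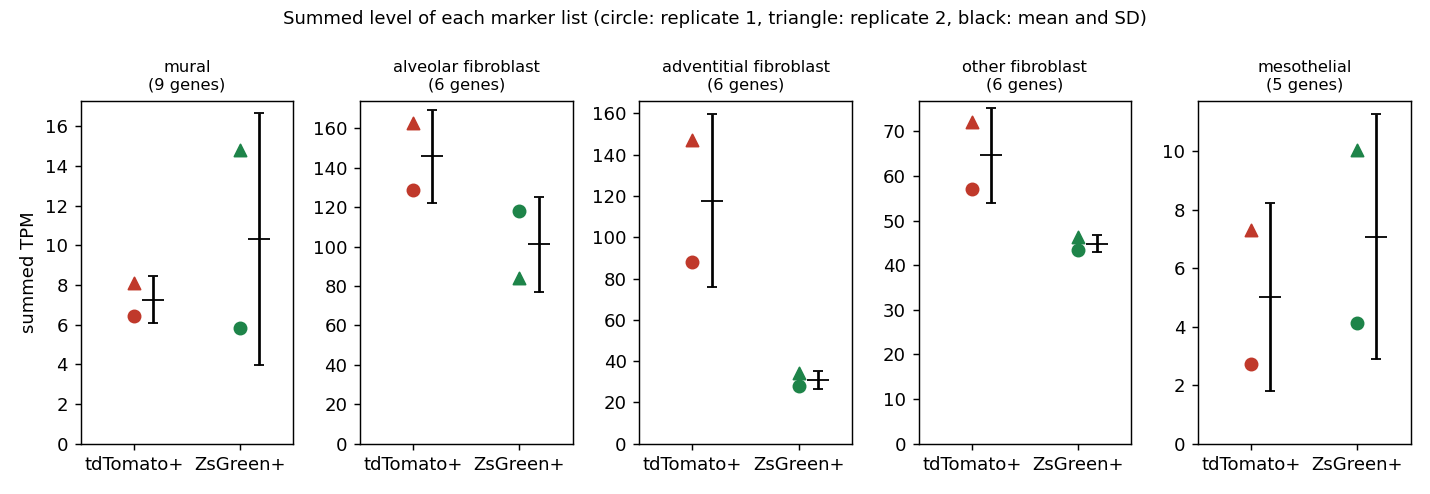
Summed TPM of each marker list (y axis, from 0) in the 2 tdTomato+ and 2 ZsGreen+ libraries (x axis), where circles are replicate 1, triangles replicate 2 and black marks the mean and SD. Adventitial markers sit at 88.0 and 147 TPM in tdTomato+ cells, above 27.9 and 34.0 TPM in ZsGreen+ cells, while the mural and mesothelial sums overlap.

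On the CPM scale both tdTomato+ libraries lay above both ZsGreen+ libraries for 8 of the 24 members tested and below for 4 (Kcnj8, Gpm6a, Higd1b and Enpp2), 12 in all, against 19.9%, 18.2% and 38.1% of all genes tested. The median log2 fold change, tdTomato+ over ZsGreen+, was 0.36 over these 24 members and -0.01 over all genes tested. Without the filter it was 0.44 over all 32 members and 0.02 over 16747 genes. These shares and medians describe a list chosen with earlier results of these data known and carry no test. By TPM, tdTomato+ replicate 2 was the highest library for 20 of the 32 members, tdTomato+ replicate 1 for 5, ZsGreen+ replicate 2 for 5 and ZsGreen+ replicate 1 for 2. The highest library was not counted over all genes, so these counts are not read as a trait of the markers. Counts reached 10 in every library for 18 members and in no library for 3 (Trpc6, Fap and Wt1).

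**Figure D2:**
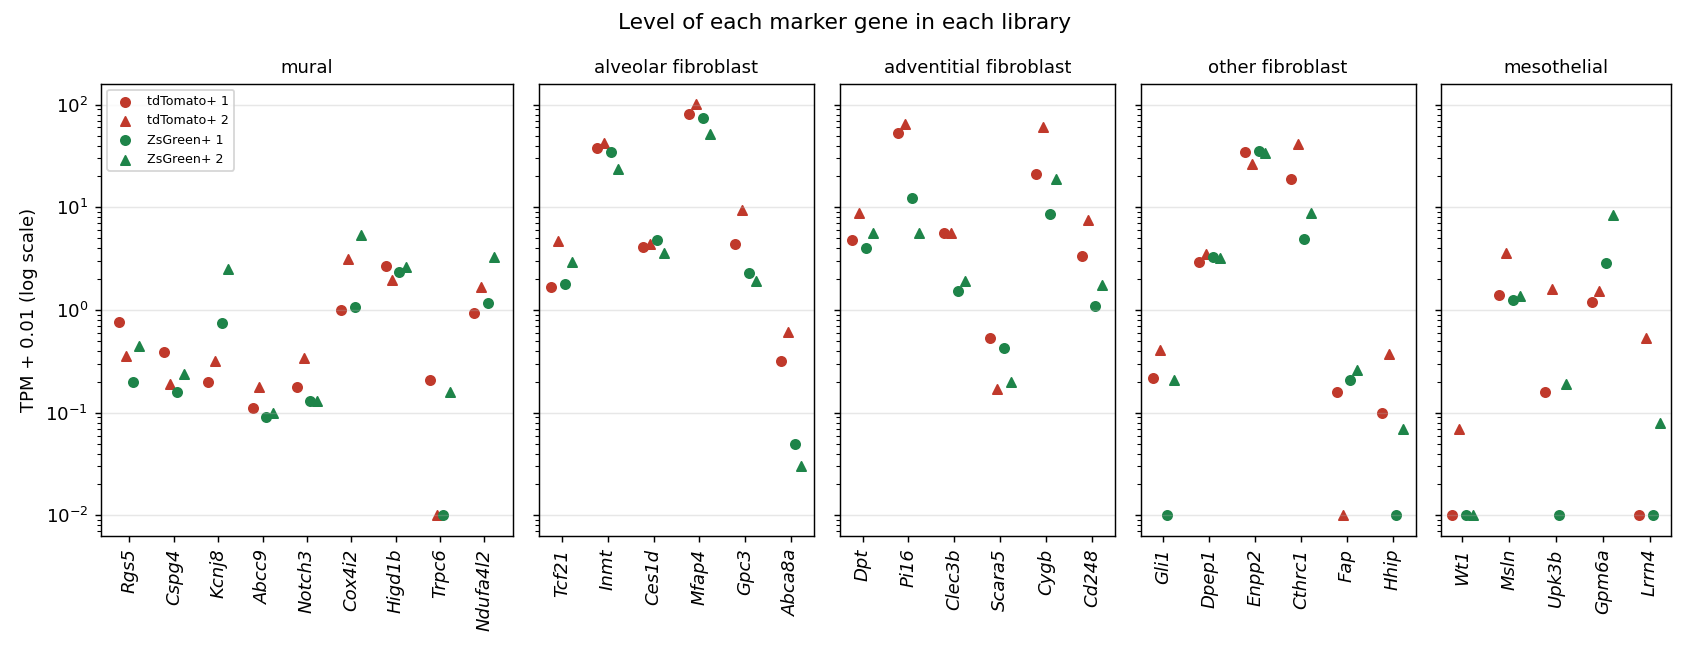
TPM plus 0.01 (y axis, log scale) of each of the 32 markers (x axis) in each library, by list, with red for tdTomato+, green for ZsGreen+, circles for replicate 1 and triangles for replicate 2. Mfap4, Inmt, Enpp2, Pi16, Cygb and Cthrc1 hold most of the signal, and points at the bottom are counts of 0.

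Promoter sequence is shown for 4 of the members: Kcnj8 and Gpm6a, lower in both tdTomato+ libraries, Gpc3, higher in both, and Inmt, an abundant alveolar marker with overlapping groups on the CPM scale. RefSeq promoters (GRCm38.p6) were matched for 17 of the 32 genes, in 18 windows, and each stretch printed here lies before the RefSeq start and holds no annotated exon. They are chr6:142571615-142571814 for Kcnj8 and chr6:55175044-55175240 for Inmt on the minus strand, chr8:54779234-54779433 for Gpm6a on the plus strand (the 5′ of its 2 RefSeq starts) and chrX:52613975-52614174 for Gpc3 on the minus strand. Capitals mark 3 motifs searched on both strands of the stretch. The TATA box is spelled TATAAA. The GC box is spelled GGGCGG in the same search. The E-box is spelled CAGGTG, and no match overlaps another here.
Kcnj8: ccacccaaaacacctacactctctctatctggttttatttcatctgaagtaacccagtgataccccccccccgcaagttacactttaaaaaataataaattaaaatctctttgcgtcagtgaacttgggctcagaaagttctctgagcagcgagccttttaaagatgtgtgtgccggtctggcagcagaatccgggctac
Gpm6a: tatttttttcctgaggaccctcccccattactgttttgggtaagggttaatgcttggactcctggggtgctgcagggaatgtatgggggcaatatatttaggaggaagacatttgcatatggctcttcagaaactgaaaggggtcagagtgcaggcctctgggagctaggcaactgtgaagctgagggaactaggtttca
Gpc3: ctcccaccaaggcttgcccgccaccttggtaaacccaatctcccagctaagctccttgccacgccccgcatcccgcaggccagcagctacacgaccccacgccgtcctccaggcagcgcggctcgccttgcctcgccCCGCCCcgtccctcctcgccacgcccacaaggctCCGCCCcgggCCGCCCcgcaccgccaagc
Inmt: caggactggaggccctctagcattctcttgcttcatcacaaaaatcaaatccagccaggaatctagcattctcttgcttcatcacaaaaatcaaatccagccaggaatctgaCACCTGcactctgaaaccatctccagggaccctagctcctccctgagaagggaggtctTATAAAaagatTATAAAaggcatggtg
The Gpc3 stretch holds 3 GGGCGG matches and the Inmt stretch holds 2 TATAAA and 1 CAGGTG, while the other 2 stretches hold none of the motifs. The Pi16 window left no stretch free of annotated exons, and the Abca8a stretch, also without a motif, is not printed. Over the whole 250 bases before the start, GGGCGG was in 5 of the 18 member windows and in 32.7% of all 32851 promoters, TATAAA in 2 and in 12.4%, and CAGGTG in 2 and in 17.2%. The windows with TATAAA include that of the other Gpm6a start, which is not printed. The Gpc3 window had 25 CpG dinucleotides, Kcnj8 6, Gpm6a 1 and Inmt 0, beside a median of 6 over all promoters. A match describes letters and not a binding site.

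Adventitial fibroblast markers were led by Pi16, a secreted and membrane-anchored glycoprotein of adventitial fibroblasts, located at chr17:29318796-29328903 (GRCm38). Pi16 stood at 52.4 and 64.4 TPM in tdTomato+ replicates 1 and 2 and at 12.2 and 5.59 TPM in ZsGreen+ replicates 1 and 2. Both tdTomato+ libraries were thus above both ZsGreen+ libraries, and the gene lay at the 82.0 and 85.0 percentiles of detected genes in the former and at the 59.0 and 42.4 percentiles in the latter. Its log2 fold change of 2.49 (SE 0.43) had an unadjusted p of 0.000726 and an edgeR adjusted p of 0.111. Leaving out 1 library at a time moved the edgeR adjusted p between 0.00448, without ZsGreen+ replicate 1 and with a log2 fold change of 3.33, and 0.371.

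Cygb, cytoglobin, a haem protein of fibroblasts and pericytes, stood at 21.3 and 60.8 TPM in tdTomato+ cells and at 8.62 and 19.0 TPM in ZsGreen+ cells. The groups did not overlap, but the lower tdTomato+ library lay close to the higher ZsGreen+ one, and the log2 fold change was 1.48 (SE 0.53). Without tdTomato+ replicate 2 it was 0.50. Cd248, endosialin, a stromal surface glycoprotein, stood at 3.35 and 7.52 TPM against 1.08 and 1.75 TPM (log2 fold change 1.82, SE 0.52, and 1.09 without tdTomato+ replicate 2). Clec3b, tetranectin, a plasminogen-binding protein, stood at 5.56 and 5.62 TPM against 1.53 and 1.90 TPM, the pair of tdTomato+ libraries differing least of these genes (1.55, SE 0.54). The edgeR adjusted p of Cygb, Cd248 and Clec3b lay between 0.316 and 0.458.

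Dpt, dermatopontin, and Scara5, a ferritin receptor, are markers of the same adventitial fibroblasts, yet their groups overlapped. Dpt stood at 4.81 and 8.77 TPM in tdTomato+ cells and 4.02 and 5.62 TPM in ZsGreen+ cells, with a log2 fold change of 0.37 (SE 0.43). Scara5 was near the bottom in all libraries, with 21 and 7 counts against 18 and 8 counts (log2 fold change -0.04, SE 0.89). Of the 6 adventitial markers, 5 had a fold change above 0, beside 6491 of all 13177 genes tested. The list median was 1.52, beside -0.01 over all genes tested. Pi16 alone made up 45.3% of the list's TPM. Without it the list summed to 35.6 and 82.9 TPM in tdTomato+ cells and to 15.7 and 28.4 TPM in ZsGreen+ cells, and the groups still did not overlap.

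Alveolar fibroblast markers held the most RNA of the 5 lists in each library, and they summed to 129 and 163 TPM in tdTomato+ cells and 118 and 84.2 TPM in ZsGreen+ cells. Mfap4, a microfibril-associated protein, was the most abundant of all 32 markers, at 80.8 and 101 TPM against 74.3 and 52.1 TPM. Inmt, which methylates indoleamines, stood at 37.7 and 42.4 TPM against 34.8 and 23.6 TPM. For both genes the groups parted narrowly by TPM and overlapped by CPM, and the log2 fold changes were 0.35 (SE 0.28) and 0.27 (SE 0.31). Ces1d, a carboxylesterase, stood at 4.08 and 4.38 TPM against 4.85 and 3.58 TPM (log2 fold change -0.17, SE 0.41). Tcf21, a transcription factor of lung fibroblast lineages, stood at 1.68 and 4.70 TPM against 1.78 and 2.94 TPM (0.32, SE 0.67). None of these 4 genes had an unadjusted p under 0.05.

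Gpc3 and Abca8a stood apart from the other alveolar markers. Gpc3, a glypican that carries heparan sulfate at the cell surface, was at 4.34 and 9.32 TPM in tdTomato+ cells and 2.31 and 1.92 TPM in ZsGreen+ cells, at a fitted log2 difference of 1.54 (SE 0.49, edgeR adjusted p = 0.389). Without tdTomato+ replicate 2 it was 0.86. Abca8a, a lipid transporter of the ABC family, had 14 and 34 counts against 2 and 1 counts. Summed over the groups and scaled to total counts, this is a ratio of 15.7 with an exact (Clopper-Pearson) 95% interval of 5.05 to 78.6 for counting error only. The fit gave a log2 difference of 3.75 (SE 0.99, edgeR adjusted p = 0.275), and 3.04 without tdTomato+ replicate 2 and 4.39 without ZsGreen+ replicate 1. The related transporter Abca8b, which shares 1.89% of the 50-base windows of the Abca8a transcript, had 9 and 3 counts against 0 and 21 counts.

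Among the other fibroblast markers Cthrc1, a secreted protein known from activated, matrix-forming fibroblasts, stood at 19.0 and 41.2 TPM in tdTomato+ cells and 4.89 and 8.75 TPM in ZsGreen+ cells. The groups did not overlap, and tdTomato+ cells stood 2.03 higher on the log2 scale (SE 0.46, edgeR adjusted p = 0.201). Without tdTomato+ replicate 2 it was 1.33. Enpp2, autotaxin, which makes lysophosphatidic acid, stood at 34.6 and 26.7 TPM against 35.1 and 33.8 TPM, with groups that overlapped by TPM and parted by CPM (-0.33, SE 0.20). Dpep1, a membrane dipeptidase, stood at 2.96 and 3.48 TPM against 3.30 and 3.22 TPM (-0.16, SE 0.40).

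The last 3 markers of that list did not pass the low count filter. Fap, fibroblast activation protein, had 4 and 0 counts in tdTomato+ cells and 5 and 6 counts in ZsGreen+ cells, although Cthrc1, which marks the same activated state, had 207 and 497 counts against 57 and 101. Gli1, the Hedgehog effector, had 8 and 17 against 0 and 8 counts, a ratio of 3.06 (95% interval 1.34 to 7.85). Hhip, a Hedgehog-binding antagonist of peribronchial fibroblasts and smooth muscle, had 4 and 13 against 0 and 3 counts (ratio 5.55, 95% interval 1.60 to 29.5). These intervals cover counting error and not the spread between libraries.

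**Figure D3:**
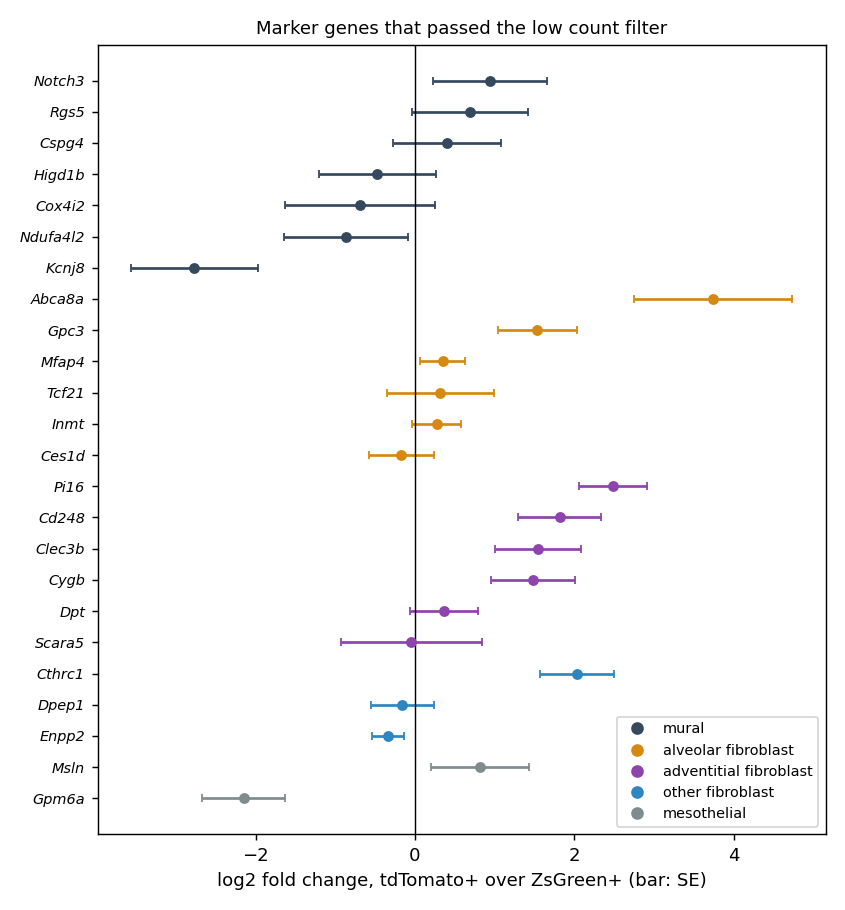
Log2 fold change of tdTomato+ over ZsGreen+ (x axis, point) with its SE (bar) for the 24 markers that passed the low count filter (y axis), coloured by list. Abca8a at 3.75 and Pi16 at 2.49 lie farthest to the right and Kcnj8 at -2.77 and Gpm6a at -2.15 farthest to the left, and none passed edgeR's test over all genes.

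Mural markers were scarce in every library, and only 2 to 4 of the 9 reached 1 TPM. Rgs5, a regulator of G protein signalling and a leading pericyte marker, had 33 and 17 counts in tdTomato+ cells and 9 and 20 in ZsGreen+ cells. Cspg4, the NG2 proteoglycan, had 33 and 17 counts against 14 and 21. Both were highest in tdTomato+ replicate 1, their groups overlapped, and the log2 fold changes were 0.69 (SE 0.73) and 0.40 (SE 0.68). Notch3, the Notch receptor of mural cells, had 15 and 32 counts against 11 and 11 (0.94, SE 0.72). Trpc6, a cation channel, had 7 and 0 against 0 and 5 counts.

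Kcnj8 went the other way, with 5 and 9 counts, or 0.19 and 0.31 TPM, in tdTomato+ cells and 21 and 70 counts, or 0.74 and 2.52 TPM, in ZsGreen+ cells. It encodes the pore of the vascular ATP-sensitive potassium channel, and both tdTomato+ libraries lay below both ZsGreen+ libraries. Its log2 fold change of -2.77 (SE 0.80) had an unadjusted p of 0.0109 and an edgeR adjusted p of 0.321, and it was -1.81 without ZsGreen+ replicate 2. Abcc9, the channel's sulfonylurea receptor subunit, did not share the pattern, at 8 and 15 counts against 7 and 8 and a ratio of 1.68 (95% interval 0.834 to 3.51). The genes of the pancreatic form of the channel, Kcnj11 and Abcc8, had 0 counts in all 4 libraries.

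The mitochondrial pericyte markers lay far below their widely expressed relatives. Cox4i2, a hypoxia-type subunit of cytochrome c oxidase, stood at 1.00 and 3.13 TPM against 1.05 and 5.33 TPM, while its general form Cox4i1 stood at 1652 and 1881 TPM against 1803 TPM in both ZsGreen+ libraries. Ndufa4l2 stood at 0.93 and 1.67 against 1.16 and 3.28 TPM beside 997 and 1134 against 1062 and 1053 TPM for Ndufa4. Higd1b stood at 2.68 and 1.95 against 2.34 and 2.64 TPM beside 58.1 and 65.6 against 77.7 and 79.4 TPM for Higd1a. No 50-base window of the Cox4i2, Ndufa4l2 or Higd1b transcripts occurs in a transcript of another gene. The log2 fold changes of the 3 markers were -0.69 (SE 0.95), -0.87 (SE 0.78) and -0.47 (SE 0.73). Without ZsGreen+ replicate 2 Cox4i2 turned to 0.69 and Ndufa4l2 came to -0.12, and without tdTomato+ replicate 2 Cox4i2 was at -1.78. By TPM the groups overlapped for all 3.

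Mesothelial markers divided into 1 gene that was lower in tdTomato+ cells and 4 that were highest in a single library. Gpm6a, a membrane glycoprotein found in mesothelium, type 1 alveolar cells and neurons, stood at 1.19 and 1.52 TPM in tdTomato+ cells and at 2.87 and 8.44 TPM in ZsGreen+ cells. The log2 fold change was -2.15 (SE 0.52), with an unadjusted p of 0.00454 and an edgeR adjusted p of 0.226, and it was called without ZsGreen+ replicate 1 (-2.66, edgeR adjusted p = 0.0222). Without ZsGreen+ replicate 2 it was -1.35. Gpm6a lies at chr8:54779434-55060878 (GRCm38). It made up 57.9% of the list's TPM, so the mesothelial sum mostly follows this gene.

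The other 4 were all highest in tdTomato+ replicate 2. Msln, mesothelin, the surface antigen that names the tissue, had 31 and 86 counts in tdTomato+ cells and 29 and 31 in ZsGreen+ cells. Upk3b, a uroplakin, had 3 and 36 against 0 and 4 counts, and Lrrn4, a leucine-rich repeat membrane protein, had 0 and 18 against 0 and 2. Wt1, a transcription factor of the mesothelium, was read only in tdTomato+ replicate 2, at 2 counts, which is under the limit that a count of 0 allows. The count ratios between groups, 9.54 (95% interval 3.44 to 36.8) for Upk3b and 8.81 (2.11 to 78.3) for Lrrn4, rest on that library, since tdTomato+ replicate 1 held 3 and 0 counts. The log2 fold change of Msln was 0.82 (SE 0.61), and -0.028 without tdTomato+ replicate 2. Without Gpm6a the list summed to 1.55 and 5.78 TPM in tdTomato+ cells and 1.25 and 1.60 TPM in ZsGreen+ cells.

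Further markers outside the 32 genes cover the same cell types with other genes. Of 24 further fibroblast markers 18 were tested and edgeR called none. At an unadjusted edgeR p under 0.05, 9 stood higher and 2 lower, against 5.62% and 3.15% of all genes tested. The list summed to 199 and 281 TPM in tdTomato+ cells and 100.2 and 114 TPM in ZsGreen+ cells. DESeq2 called 7 of this list (Fmo2, Col1a2, Dpp4, Col3a1, Col1a1, Gsn and Mfap5) and edgeR without the low count filter 3 (Fmo2, Col3a1 and Dpp4), beside the shares of all genes given above for these settings. Fmo2, a monooxygenase, stood at 25.9 and 31.2 against 10.4 and 12.7 TPM (log2 fold change 1.16, SE 0.20), Col3a1 at 17.8 and 33.9 against 5.99 and 9.21 TPM and Serpinf1, a secreted serpin, at 6.65 and 11.2 against 2.40 and 2.66 TPM. Dpp4, a surface peptidase of adventitial fibroblasts and other cells, stood lower, at 4.25 and 3.82 against 7.55 and 19.8 TPM (-1.83, SE 0.39), as did Wnt2, a Wnt ligand that the naming rule does not cover, at 0.14 and 0.93 against 2.01 and 2.38 TPM. The defining genes of the lineage were not all alike: Dcn, decorin, stood at 10.7 and 11.8 against 4.53 and 3.07 TPM and Col1a1 at 18.5 and 38.8 against 5.32 and 12.5 TPM, but Pdgfra, the receptor of fibroblasts, at 0.61 and 0.92 against 0.56 and 0.58 TPM. Pi16 exceeded Dcn per length in all 4 libraries.

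For mural cells 15 of 18 further markers were tested and edgeR called none. Fold changes were above 0 for 10 and below 0 for 5, beside 6491 of all 13177 genes tested above 0, and the median was 0.23. Only Pdgfrb and Heyl had an unadjusted edgeR p under 0.05, 2 higher and 0 lower, against 5.62% and 3.15% of all genes tested. Pdgfrb, the pericyte growth factor receptor, stood at 1.59 and 1.68 against 0.61 and 0.77 TPM (log2 fold change 1.11, SE 0.41), and Heyl, a Notch target, at 1.32 and 1.18 against 0.33 and 0.45 TPM (1.54, SE 0.51). The list summed to 347 and 368 against 298 and 416 TPM, mostly from Mcam, which endothelial cells also express. Of the 10 smooth muscle markers, 8 were tested and edgeR called 1, beside 0.304% of all genes tested. This was Acta2, the gene of the aSMA that names the Dre driver (2.29, SE 0.29, edgeR adjusted p = 0.0432). That call was lost without tdTomato+ replicate 2 (1.86, edgeR adjusted p = 0.126) and without ZsGreen+ replicate 2 (2.24, edgeR adjusted p = 0.111). Myh11, the smooth muscle myosin, stood at 1.01 and 1.98 against 0.59 and 1.36 TPM. Fold changes were above 0 for all 8 smooth muscle markers tested, beside 6491 of all 13177 genes tested. An unadjusted edgeR p under 0.05 was found for 2 higher and 0 lower, against 5.62% and 3.15% of all genes tested. This list summed to 1857 and 2465 TPM in tdTomato+ cells and 1289 and 1079 TPM in ZsGreen+ cells, mostly from Tagln. Of 11 further mesothelial markers 6 were tested and edgeR called none. All 6 had fold changes above 0, beside 6491 of all 13177 genes tested. At an unadjusted edgeR p under 0.05, 3 stood higher and 0 lower, against 5.62% and 3.15% of all genes tested. The list summed to 42.7 and 115 against 22.5 and 33.4 TPM, whereas the sums of the 5 mesothelial members overlapped. Most of its TPM came from Cldn15 and from keratins, which epithelium also makes, so the sum is not specific to the mesothelium. Krt19 stood at 21.9 and 29.6 against 14.6 and 11.4 TPM. Counts of 0 were found for 3 and 1 of the 11 genes in tdTomato+ replicates 1 and 2 and for 3 and 4 in ZsGreen+ replicates 1 and 2. Krt18, a keratin of simple epithelia, stood at 9.53 and 11.3 against 2.45 and 3.78 TPM, and Cldn15, a claudin, was another gene far highest in tdTomato+ replicate 2, at 55.3 TPM against 6.57 TPM in replicate 1 and 2.14 and 10.7 TPM in ZsGreen+ cells.

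Most markers of leukocytes and epithelium also had fold changes above 0. The 10 leukocyte markers were all tested, and edgeR called none and DESeq2 1 (Itgam), beside 2.36% of all genes. Their fold changes were above 0 in 10 of 10, beside 6491 of all 13177 genes tested. They summed to 8889 and 4516 TPM in tdTomato+ cells against 4321 and 1429.9 TPM in ZsGreen+ cells, mostly Lyz2. Ptprc, the pan-leukocyte antigen, stood at 6.80 and 4.33 against 2.32 and 1.11 TPM. The 10 epithelial markers, with 8 fold changes above 0, summed to 1079.5 and 1187 against 501 and 2353 TPM. Without Scgb1a1 they summed to 804 and 894 against 421 and 255 TPM. Of these 10, edgeR called none, DESeq2 2 (Sftpc and Sftpb) and edgeR without the low count filter 1 (Sftpb). The shares of all genes called were 2.36% for DESeq2 and 0.764% without the filter. Leaving out ZsGreen+ replicate 1 brought edgeR calls in the further fibroblast, leukocyte and epithelial lists alike, but that fit leaves a single ZsGreen+ library. Sftpb stood at 88.7 and 126 against 37.0 and 38.3 TPM (log2 fold change 1.36, SE 0.24). Epcam, the epithelial adhesion molecule, stood at 0.96 and 0.56 against 0.27 and 0.36 TPM. No defining marker of these lists was at 0, and their part in the stromal results was not tested. The leukocyte sum was highest in tdTomato+ replicate 1. The full epithelial sum was highest in ZsGreen+ replicate 2. Without Scgb1a1 it was highest in tdTomato+ replicate 2 and had the same library order as the alveolar fibroblast sum. That match holds only with this most abundant epithelial gene left out. The adventitial, other fibroblast, further fibroblast, smooth muscle and further mesothelial sums were highest in tdTomato+ replicate 2 too. Of the 12 endothelial markers edgeR called none and DESeq2 1 (Cldn5), beside 2.36% of all genes. Cldn5, a claudin, stood lower, at 538.5 and 669 against 817 and 1154 TPM (log2 fold change -0.84, SE 0.22).

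**Figure D4:**
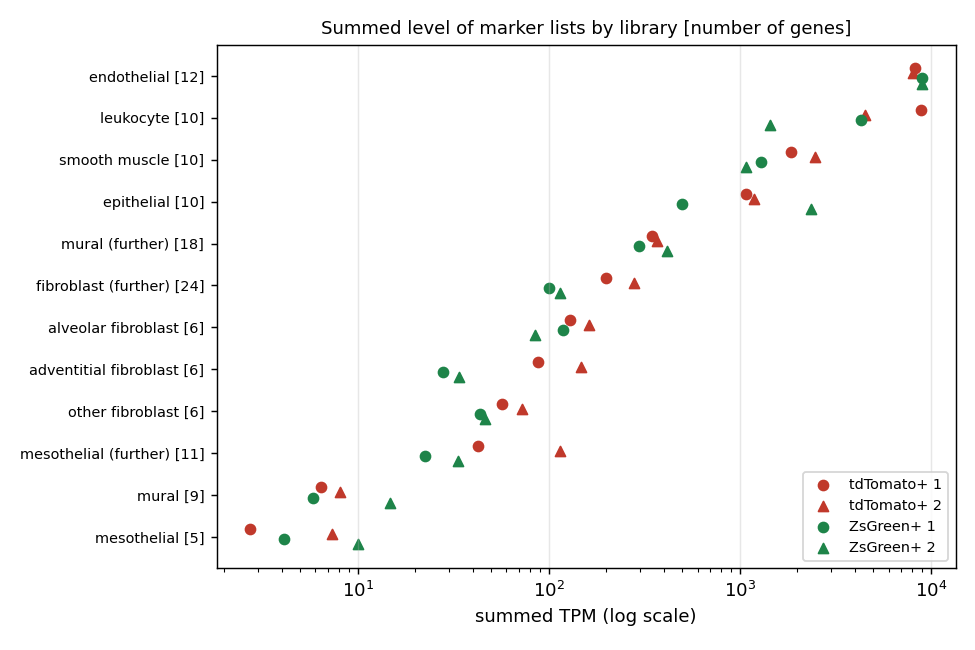
Summed TPM (x axis, log scale) of the 5 stromal marker lists and of 7 further lists (y axis, number of genes in brackets) in each library, with red for tdTomato+, green for ZsGreen+, circles for replicate 1 and triangles for replicate 2. Endothelial markers lie at 8049 to 8976 TPM, while the mural and mesothelial lists of 9 and 5 genes lie at 2.74 to 14.8 TPM.

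Reads of overlapping genes bear on a few members, since no source used here states whether counting used the strand. Of the 32 transcripts, 9 shared any 50-base window with another gene, at 1.28% to 6.79% of their windows. For Cygb the 6.79% overlapped Prcd on the opposite strand, which itself stood at 8.40 and 13.5 against 9.11 and 7.62 TPM. For Pi16 4.46% overlapped an unnamed opposite-strand gene, and for Ces1d the windows shared with Ces1b, which had 0 counts in all libraries, made up 0.87%.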

How the data were processed

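RNA of sorted lung endothelial cells was amplified over the whole transcriptome before library preparation for an MGI sequencer, per the labels' protocols. The deposited table gives estimated counts, named read counts per the file headers, and TPM values made by the authors for each of the 4 libraries. The submitters' processing notes name RSEM 1.3.1, DESeq2 1.4.5 and the builds mm10 and GRCm38, with no role given. Estimated counts, of which 16.2% to 17.9% per library were not whole, were rounded. Total counts were 17050673 to 18574737 per library.

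Groups came from the sample titles. edgeR 4.0.16 (R 4.3.3) compared tdTomato+ with ZsGreen+ libraries over the whole table, by quasi-likelihood F-tests (two-sided), with TMM factors and filterByExpr at a minimum count of 10, and Benjamini-Hochberg adjustment over 13177 genes (called under 0.05). Each SE is the size of the log2 fold change divided by the root of the F statistic. CPM values use TMM-scaled library sizes. With 2 against 2 libraries an exact permutation test cannot go below 0.333, so none was run. The fit was also run on simulated counts, with the same spread set for every gene and changes placed only in more abundant genes. That run does not cover the scarce markers. Shared sequence was searched in GENCODE vM21 transcripts in windows of 50 bases, using the longest coding transcript of each gene.

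The members, lists and tests were chosen with earlier results of these data known. All 32 members are named. Of the other lists the called genes, defining markers and up to 4 genes of lowest p whose mean reached 1 CPM may be named. Scgb1a1, Lyz2, Mcam and Tagln are named as the largest parts of their lists. Col1a2, Gsn and Mfap5, called only in other settings, were named after their values were seen. Lhfpl6 was matched through its older symbol. Alternatives were RLE factors, DESeq2 1.42.0, limma 3.58.1 with trend on log2 of TPM plus 1 or plus 0.1 (at least 1 TPM in 2 libraries), no filter or a minimum count of 30, a replicate block, leaving out each library, and other ways of summing a list.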

Additional observations from a re-analysis of the deposited data

How the results depend on the processing

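Over all genes, where the main analysis called 40 and no member, DESeq2 called 326 genes and 3 members, edgeR without the low count filter 128 and 1, and limma on log2 of TPM plus 0.1 called 22 and 0. Leaving out 1 library at a time gave 4 (without tdTomato+ replicate 2) to 304 genes (without ZsGreen+ replicate 1) and 0 to 2 members. With the replicate number as a block 934 genes and 8 members (Pi16, Cthrc1, Cygb, Cd248, Gpm6a, Gpc3, Kcnj8 and Abca8a) were called, beside 7.09% of all genes. Same-numbered libraries deviated together (correlation 0.45 over 13177 genes), but 2 pairs and labels that name no shared animal or day do not establish pairing.

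List medians of the log2 fold change moved with the number of members in the fit: under DESeq2 and without the filter they were 0.39 and 0.40 for mural, 0.70 and 0.69 for other fibroblast and 2.27 and 2.90 for mesothelial markers, against -0.47, -0.16 and -0.67. Leaving out 1 library gave medians of 0.17 to 0.83 for all members, -0.35 to 0.53 for mural, 0.84 to 1.83 for adventitial, -0.17 to 2.37 for other fibroblast and -1.19 to 3.43 for mesothelial markers.

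The log2 ratio of summed TPM was 1.43 for adventitial, 1.70 for other fibroblast and 1.36 for mesothelial markers without the most abundant member of each, and -0.017 for other fibroblast markers summed as CPM. Without 1 library it ran from 0.54 to 1.03 for all members, -1.03 to 0.31 for mural, 1.51 to 2.25 for adventitial, 0.35 to 0.69 for other fibroblast and -1.37 to 0.28 for mesothelial markers.

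The direction turned in at least 1 fit without a library for 8 members, whose log2 fold changes then ranged from -0.19 to 0.85 for Cspg4, -1.78 to 0.69 for Cox4i2, -0.64 to 0.90 for Tcf21, -0.082 to 0.73 for Inmt, -0.47 to 0.21 for Ces1d, -0.16 to 0.76 for Dpt, -1.08 to 0.79 for Scara5 and -0.028 to 1.35 for Msln. Ces1d was also at 0.014 and 0.020 in limma with a pseudocount of 1 and 0.1. The 9 members with an unadjusted p under 0.05 kept their direction in each setting run. Depth limits the rest: 8 of the 32 members had too few counts to be tested.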
